A study of Mus musculus with 12 samples.

Results

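The genes followed here code for neurotrophins and their receptors, 6 in all, and were read in hippocampal RNA of 4 mouse genotypes: the receptors Ngfr and Sort1, the ligands Bdnf and Ntf3, and the receptor kinases Ntrk2 and Ntrk3. They were taken by symbol from the table of raw counts, and all 6 were found among its 24421 genes and passed the filter on low counts that left 13065 genes for testing. The mice were 2 months old, all had received BrdU (a thymidine analogue that dividing cells take up), and each genotype gave 3 libraries. Those genotypes were WT; 5xFAD; p75NTRko; and 5xFAD/p75NTRko, the cross of both. The 5xFAD line models amyloid disease through mutant human transgenes that the Thy1 promoter drives, mainly in neurons. By its name the p75NTRko line lacks p75NTR, which Ngfr codes for, but the labels give neither the allele nor the exon that was disrupted, nor strain or sex. Thus 6 libraries carried the receptor label, with and without the transgenes, and 6 did not. The study asks by its title how that receptor shapes neurogenesis in the hippocampus of the disease model.

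Neurotrophins are secreted as precursors and cut to mature dimers. Mature BDNF binds TrkB, the product of Ntrk2, and NT-3 binds TrkC, the product of Ntrk3; both are tyrosine kinases that signal through Ras-MAPK, PI3K-Akt and phospholipase C. All mature neurotrophins also bind p75NTR, which lacks a kinase domain, and the precursors bind p75NTR together with sortilin, the product of Sort1. In the hippocampus BDNF is made mainly by excitatory neurons and is induced by activity, NT-3 is known from dentate granule cells, and TrkB is made by neurons and, in truncated forms without the kinase, by astrocytes. In the adult forebrain p75NTR is best known from cholinergic neurons of the basal forebrain, whose axons reach the hippocampus.

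RNA was read at its 3′ ends, so a count carries no gene-length term, and levels are given as CPM, counts scaled to 1000000 per library with TMM-adjusted library sizes. Libraries held 4316739 to 6683613 gene-assigned counts, and 3 counts, the limit of measurement used here, stood for 0.446 to 0.690 CPM. Thy1, which marks the transgene promoter, was 1596 to 4019 CPM in the 6 carriers and 688 to 940 CPM in the other 6 libraries. Xist was 360 to 440 CPM in 7 libraries (all WT, all 5xFAD/p75NTRko and p75NTRko replicate 1) and 1.53 to 3.58 CPM in the other 5. The Xist class therefore cannot be told apart from the genotype where 5xFAD libraries are set against WT or against 5xFAD/p75NTRko. Within a genotype the class differed only in p75NTRko, so a fit with Xist class as a covariate rests on replicate 1 against replicates 2 and 3 there. All 14 markers of hippocampal principal neurons passed the filter, among them Prox1, C1ql2, Wfs1 and Neurod6. Their mean log2 CPM was 4.98, 5.27 and 5.21 in WT replicates 1 and 2 and 5xFAD/p75NTRko replicate 3, and 5.70 to 5.997 in the other 9 libraries. In tissue, fewer cells of a type and less RNA per cell cannot be told apart.

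The gene models set what a count can mean. In GENCODE M21, on GRCm38, Ngfr (chromosome 11, 95568818 to 95587735, minus strand) has 1 transcript and no overlapping gene. Its reads come from the 3′ end of that transcript, so a count says nothing of an exon removed upstream of it and is no check of whether receptor protein was lost. Bdnf (chromosome 2, 109674700 to 109727007, plus strand) has 11 coding transcripts that begin at 9 positions and share 1 annotated 3′ end. Ntf3 (chromosome 6, 126101412 to 126166910, minus strand) likewise has 3 starts and 1 end. A count of either gene thus sums over its promoters. Ntrk2 (chromosome 13, 58806569 to 59133970, plus strand) and Ntrk3 (chromosome 7, 78175959 to 78738012, minus strand) have 6 ends each among their coding transcripts, spread over 255 kb and 402 kb, and their counts sum kinase-bearing and truncated forms. Sort1 (chromosome 3, 108284082 to 108361511, plus strand) has 2 coding transcripts whose ends lie within 0.1 kb. Bdnf, Sort1, Ntrk2 and Ntrk3 overlap annotated antisense genes, and no source used here gives the strand setting of the counting. Genes on the same strand also overlap Sort1 (Gm43099), Ntrk2 (C630044B11Rik) and Ntrk3 (Gm44607 and Gm39038), which a strand setting would not separate.

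Promoter windows at 4 starts are shown, of the gene that was higher with the receptor label and of the 2 ligands. For Bdnf only 1 of 7 windows is printed. They come from RefSeq on GRCm38.p6, run from 250 bases before to 50 bases after a transcription start, and are printed in the direction of transcription. RefSeq entries were matched for Ngfr (1), Bdnf (7), Ntf3 (2) and Ntrk2 (1); Ntrk3 and Sort1 had none. Capitals mark 2 motifs searched on both strands: the GC box GGGCGG, known as a binding site of Sp1-type factors, and the CRE-like TGACGTNA, known from CREB. The windows are Ngfr at chr11:95587649-95587948 (minus strand), the upstream and the downstream start of Ntf3 at chr6:126166695-126166994 and chr6:126164911-126165210 (both minus strand), and start 3 of 7 of Bdnf at chr2:109692186-109692485 (plus strand).
Ngfr: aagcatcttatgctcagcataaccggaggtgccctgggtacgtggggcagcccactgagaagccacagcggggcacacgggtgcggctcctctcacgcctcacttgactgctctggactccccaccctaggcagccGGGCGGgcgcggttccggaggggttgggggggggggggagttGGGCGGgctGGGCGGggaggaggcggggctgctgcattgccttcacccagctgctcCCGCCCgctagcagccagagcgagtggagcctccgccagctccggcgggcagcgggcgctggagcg
Ntf3, upstream start: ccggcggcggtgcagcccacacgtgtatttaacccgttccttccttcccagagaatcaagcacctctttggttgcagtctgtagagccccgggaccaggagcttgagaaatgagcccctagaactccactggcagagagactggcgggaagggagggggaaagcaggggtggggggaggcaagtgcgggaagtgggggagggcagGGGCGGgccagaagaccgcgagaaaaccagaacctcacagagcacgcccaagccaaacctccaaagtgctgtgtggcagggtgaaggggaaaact
Ntf3, downstream start: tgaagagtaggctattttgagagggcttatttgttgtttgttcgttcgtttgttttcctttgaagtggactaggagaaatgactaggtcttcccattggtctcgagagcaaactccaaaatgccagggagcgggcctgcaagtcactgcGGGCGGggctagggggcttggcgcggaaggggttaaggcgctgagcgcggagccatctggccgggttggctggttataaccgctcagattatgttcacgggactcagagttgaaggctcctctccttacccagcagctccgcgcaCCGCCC
Bdnf, start 3: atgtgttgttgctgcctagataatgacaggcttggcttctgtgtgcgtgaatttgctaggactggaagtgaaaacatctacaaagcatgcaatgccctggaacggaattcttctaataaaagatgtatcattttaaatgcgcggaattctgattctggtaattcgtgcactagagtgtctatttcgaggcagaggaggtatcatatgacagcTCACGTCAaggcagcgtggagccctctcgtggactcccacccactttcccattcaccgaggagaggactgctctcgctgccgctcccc
The Ngfr window held 4 GC boxes and 71.7% G and C, a GC content at or above that of 93.1% of 32851 promoter windows of the same length. Ntf3 had 1 GC box at its upstream and 2 at its downstream start. Among windows not printed, Bdnf start 2 held 2 GC boxes, Bdnf start 4 held 1 and Ntrk2 held 1. No other Bdnf window held any. Of all windows 35.7% held a GC box. The window of Bdnf start 3, the Bdnf window printed, was the only one of the 11 member windows with a CRE-like match. Of all windows 2.93% held such a match. The match is thus not typical of the Bdnf windows. These matches describe the letters of the windows.

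Ngfr was the member that differed between the genotypes beyond all others. Its level was 0.897, 1.95 and 0.166 CPM in WT replicates 1, 2 and 3, on 6, 12 and 1 counts. In 5xFAD it was 1.70, 0.751 and 0.842 CPM, on 10, 4 and 4 counts. Both genotypes without the receptor label thus lay close to the limit of measurement. Libraries labelled p75NTRko had 7.79, 7.36 and 5.95 CPM, on 42, 32 and 40 counts, and libraries labelled 5xFAD/p75NTRko had 6.33, 10.53 and 10.49 CPM, on 38, 54 and 64 counts. The 6 libraries with the receptor label lay above all 6 without it. By its name the label means loss of the receptor, which these 3′ counts do not check. The allele is not given, and these genotypes are therefore called by their labels only. The 95% Clopper-Pearson interval of the lowest labelled library was 4.25 to 8.10 CPM and that of the highest unlabelled library 1.01 to 3.40 CPM; the intervals cover counting error only. Genotype means were 1.003 ± 0.896, 1.10 ± 0.523, 7.03 ± 0.962 and 9.12 ± 2.41 CPM (SD, n = 3 each) in WT, 5xFAD, p75NTRko and 5xFAD/p75NTRko; WT and 5xFAD did not differ beyond their spread, and p75NTRko and 5xFAD/p75NTRko overlapped.

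**Figure D1:**
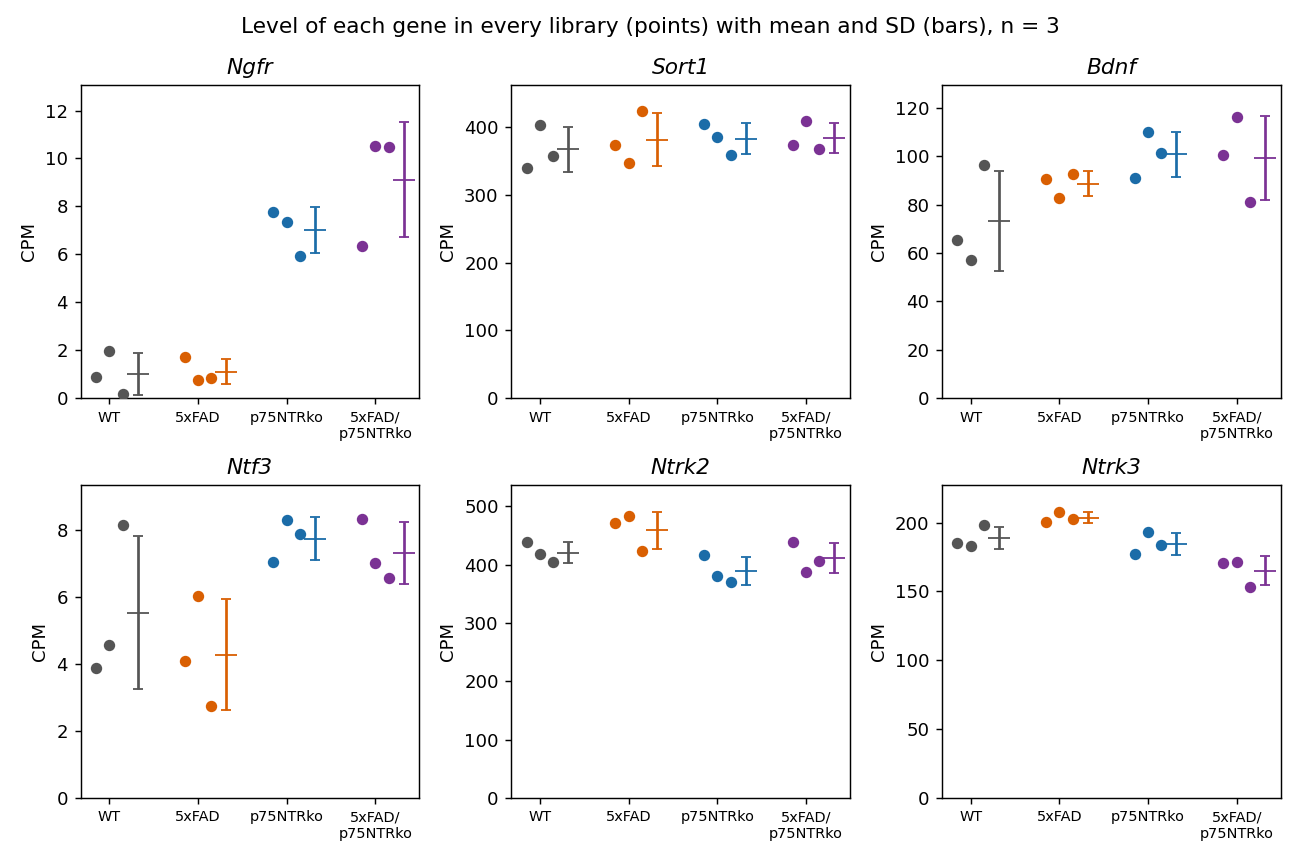
Level of each of the 6 genes in CPM (vertical axes, from 0) by genotype; points are the 3 libraries of a genotype, bars their mean and SD. Ngfr lies at 0.166 to 1.95 CPM without the receptor label and at 5.95 to 10.53 CPM with it, while the libraries of Sort1 overlap in all genotypes and those of Ntrk3 in 5xFAD/p75NTRko are the lowest of the 12.

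Averaged over both transgene states, the receptor label went with a 7.38-fold higher Ngfr, a log2 fold change of 2.88 with a 95% interval of 2.18 to 3.59 (SE 0.329, edgeR adjusted p = 0.00452, higher in 6 of 6 libraries), and Ngfr had the smallest p of all genes tested. In that comparison 1 of 6 members and 0.0842% of all genes passed an adjusted p of 0.05. Libraries higher without overlap, as for Ngfr, were found for 0.161% of genes. The call was kept in each of 21 alternatives, with adjusted p-values of 3.17e-12 to 0.0376. Among them, Xist class as a covariate, set by the p75NTRko libraries alone, gave 2.84 (edgeR adjusted p = 0.0238). The thalamus and habenula score as a covariate gave 2.65 (edgeR adjusted p = 0.0376). That score, a mean log2 CPM of markers, was 4.34 to 4.76 in WT and 3.60 to 3.98 in 5xFAD. It was 3.29 to 3.415 in p75NTRko and 3.20 to 5.03 in 5xFAD/p75NTRko. The Ngfr log2 fold change rose to 4.05 when the 3 libraries of lowest hippocampal neuron score were left out. That leaves WT replicate 3 with its 1 count as the only WT library. Split by transgene state, the log2 fold change was 2.77 against WT (SE 0.468, edgeR adjusted p = 0.0822) and 2.997 against 5xFAD (SE 0.463, edgeR adjusted p = 0.0478). The adjusted p of the second stands close to the threshold. Leaving out 1 library at a time kept its log2 fold change at 2.78 to 3.48, and the call was lost in 9 of those 12 fits: without WT replicate 1, any 5xFAD or p75NTRko library, or 5xFAD/p75NTRko replicate 2 or 3, with adjusted p-values up to 0.334. With Xist class as a covariate it was 2.76 (edgeR adjusted p = 0.999), but class and genotype coincide in that comparison. Ngfr was higher without overlap in both, as 7.93% of genes were against WT and 5.18% against 5xFAD. The effect did not pass as different between the transgene states, with an interaction of 0.23 and an interval of -1.32 to 1.77 (edgeR adjusted p = 0.939).

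Markers of cells known to make p75NTR were read beside Ngfr. Of 7 cholinergic neuron markers 3 passed the filter; Gbx1 was at 0 counts in every library, and Chat, the enzyme that makes acetylcholine, had 0 to 6 counts. The 7 together summed to 2.38 to 7.71 CPM in receptor-labelled and 3.37 to 11.5 CPM in the other libraries. Ecel1 had the highest mean of the 7, at 5.64 CPM in WT, 4.62 in 5xFAD, 1.23 in p75NTRko and 2.85 in 5xFAD/p75NTRko. Slc5a7 was 0.974, 1.775, 1.18 and 1.335 CPM in the same order. Of 14 meningeal, perivascular and Schwann cell markers 11 passed; Prx and Foxd3, which mark Schwann cells and their precursors, had 0 to 3 counts. The 14 summed to 180 to 274 CPM in receptor-labelled and 149 to 485 CPM in the other libraries. Which cells the Ngfr counts came from was not tested.

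Sort1, the sorting receptor that joins p75NTR in binding precursors, was abundant and level. It was 340, 404 and 357 CPM in WT, 374, 347 and 424 CPM in 5xFAD, 404, 386 and 359 CPM in p75NTRko and 374, 410 and 368 CPM in 5xFAD/p75NTRko libraries. All 4 genotypes overlapped and no mean differed from a neighbour beyond the spread. Its log2 fold changes in the 4 pairwise comparisons of a single label lay between 0.003 and 0.06. The receptor label averaged 0.03, with an interval of -0.11 to 0.18 (edgeR adjusted p = 0.934). The directions were not stable to the settings: the one nearest to 0, in 5xFAD/p75NTRko against p75NTRko, turned to -0.004 with RLE in place of TMM scaling.

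Bdnf, the activity-regulated ligand of TrkB, had its lowest libraries in WT. It was 65.6, 57.3 and 96.6 CPM in WT replicates 1, 2 and 3. Libraries of 5xFAD had 90.7, 82.8 and 92.6 CPM, those labelled p75NTRko 91.2, 110 and 101 CPM, and those labelled 5xFAD/p75NTRko 100.4, 116 and 81.3 CPM. WT replicate 3 stood with the other genotypes and WT overlapped with each of them. Means were 73.2 ± 20.7, 88.7 ± 5.17, 101 ± 9.36 and 99.3 ± 17.5 CPM (SD, n = 3 each), in the same order. The log2 fold change was 0.46 in p75NTRko against WT (SE 0.169, unadjusted p = 0.0157, edgeR adjusted p = 0.362) and 0.44 in 5xFAD/p75NTRko against WT (SE 0.169, edgeR adjusted p = 0.472); both share the WT libraries, and neither passed. With the receptor label averaged it was 0.31, with an interval of 0.06 to 0.57 (edgeR adjusted p = 0.719).

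Bdnf was lowest where markers of hippocampal neurons were lowest. The 3 libraries of lowest hippocampal neuron score, which include WT replicates 1 and 2, had the 3 lowest Bdnf levels, 57.3 to 81.3 CPM, against 82.8 to 116 CPM in the other 9. Of 49 relations between members and marker scores of 7 lists, 2 had a permutation p that passed Benjamini-Hochberg adjustment, both of Bdnf: with hippocampal neuron markers (permutation p = 0.00201, adjusted 0.0492) and with striatum markers (permutation p = 0.00072, adjusted 0.0353); by Spearman's rho 0 of 49 passed. Around the genotype means, Bdnf with striatum markers did not pass (r -0.61, adjusted permutation p = 0.197). Bdnf with hippocampal neuron markers (r 0.81, adjusted permutation p = 0.0475) and Ntf3 with meningeal, perivascular and Schwann cell markers (r 0.89, adjusted permutation p = 0.00343) did. Deviations were permuted freely over all 12 libraries, with no allowance for the genotype means taken out. These p-values can therefore be too small, and whether either relation would pass otherwise was not tested. Without the 2 libraries farthest from the median score, the 2 relations that passed were Bdnf with thalamus and habenula markers (r -0.95, adjusted permutation p = 0.00441) and Ntf3 with choroid plexus markers (r 0.89, adjusted permutation p = 0.0243). For Bdnf with hippocampal neuron and with striatum markers no coefficient over all 12 is given. The hippocampal scores fall into separate clusters. The striatal scores were 4.29 to 4.47 in WT and 3.43 to 4.09 in the other 9 libraries. Within the 9 libraries of higher hippocampal score, Pearson's r was 0.46 (exact permutation p = 0.214) and rho 0.48 (exact permutation p = 0.194). Within the 9 libraries other than WT, which have the lower striatal scores, r was -0.89 (exact permutation p = 0.00186) and rho -0.87 (exact permutation p = 0.00451). Both splits were placed at gaps in these same scores, and only for the 2 relations that had passed. Their p-values are unadjusted and describe the chosen libraries only. With the hippocampal neuron score as a covariate, the Bdnf log2 fold change in p75NTRko against WT was 0.06 in place of 0.46. Without the 3 libraries of lowest score it was also 0.06, with WT replicate 3, the highest of WT, as the only WT library. In 5xFAD against WT the value turned from 0.28 to -0.07 with the covariate and to -0.12 without those libraries. These 2 settings were chosen after the scores were seen. WT replicates 1 and 2 are among the libraries of lowest score, so score and WT cannot be fully told apart. With the planned thalamus and habenula score as a covariate, Bdnf was 0.45 in p75NTRko against WT and 0.27 in 5xFAD against WT. With Xist class it was 0.32 and 0.07, and class and genotype coincide in the second. The cause of the Bdnf difference was not tested.

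**Figure D2:**
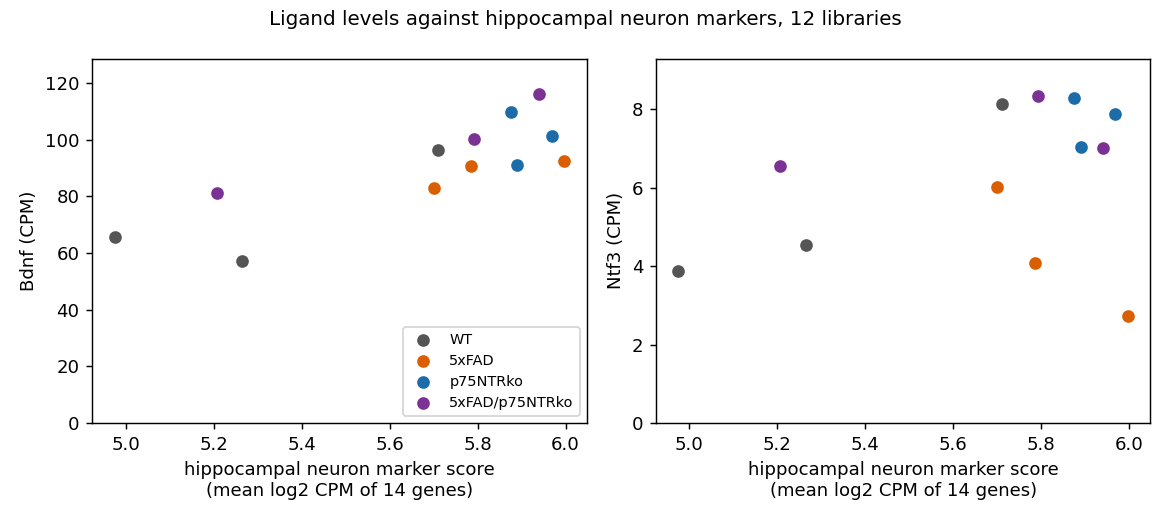
Bdnf (left) and Ntf3 (right) in CPM against the mean log2 CPM of 14 hippocampal neuron markers; each point is a library, coloured by genotype. The 3 libraries with scores under 5.3 have the lowest Bdnf, 57.3 to 81.3 CPM, whereas low Ntf3 is found at both ends of the score.

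Ntf3, the gene of NT-3, was scarce, with 13 to 53 counts per library. It was 3.89, 4.54 and 8.13 CPM in WT replicates 1, 2 and 3 and 4.08, 6.01 and 2.74 CPM in 5xFAD. Libraries labelled p75NTRko had 7.04, 8.28 and 7.88 CPM and those labelled 5xFAD/p75NTRko 8.33, 7.02 and 6.56 CPM. Receptor-labelled libraries thus spanned only 6.56 to 8.33 CPM and the other 6 a wider 2.74 to 8.13 CPM, and WT replicate 3 was the single unlabelled library inside the labelled range. 5xFAD/p75NTRko lay above 5xFAD without overlap, as 5.18% of genes did, by 0.76 on the log2 scale with an interval of 0.09 to 1.43 (unadjusted p = 0.0285, edgeR adjusted p = 0.878). Averaged over transgene states the receptor label went with a log2 difference of 0.63 (SE 0.217, unadjusted p = 0.0116, edgeR adjusted p = 0.648), which did not pass in the main test or any alternative. The 14 choroid plexus markers had mean log2 CPM of 4.49 to 5.15 in p75NTRko and 0.725 to 5.15 in 5xFAD/p75NTRko libraries, against 3.48 to 5.02 in WT and 1.52 to 3.53 in 5xFAD. With the averaged receptor label their median log2 fold change was 0.66 and 0 of 14 passed by edgeR (1 at an unadjusted p under 0.05). Over the 12 libraries Ntf3 against that score had an r of 0.45 (permutation p = 0.146, adjusted 0.531) and a rho of 0.64 (permutation p = 0.0278, adjusted 0.262), and neither passed. Its relation to the meningeal, perivascular and Schwann cell score had an r of 0.25 (permutation p = 0.434, adjusted 0.733), and 0.89 around the genotype means. In order of means, 5xFAD (4.27 ± 1.65 CPM), WT (5.52 ± 2.28 CPM), 5xFAD/p75NTRko (7.30 ± 0.918 CPM) and p75NTRko (7.73 ± 0.630 CPM; SD, n = 3 each), neighbours did not differ beyond their spread. Without the 3 libraries of lowest hippocampal score, p75NTRko against WT was -0.07 in place of 0.49. That fit keeps WT replicate 3, the highest of WT for Ntf3, as the only WT library.

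Ntrk2 was the most abundant member. Its levels were 439, 418 and 404 CPM in WT, 472, 483 and 423 CPM in 5xFAD, 417, 380 and 371 CPM in p75NTRko and 439, 387 and 407 CPM in 5xFAD/p75NTRko libraries. The highest mean, 459 ± 31.8 CPM in 5xFAD, and the lowest, 389 ± 24.4 CPM in p75NTRko (SD, n = 3 each), had WT (420 ± 17.8 CPM) and 5xFAD/p75NTRko (411 ± 26.1 CPM) between them, and neighbours in this order overlapped. Averaged over transgene states the receptor label went with -0.14 on the log2 scale (SE 0.0621, unadjusted p = 0.0454, edgeR adjusted p = 0.775). The 10 astrocyte markers, read because astrocytes make truncated TrkB, had mean log2 CPM of 7.64 to 7.81 over the 12 libraries. Ntrk2 against their score had a Pearson r of 0.22 (permutation p = 0.494, adjusted 0.734) and a rho of 0.20 (permutation p = 0.544), and neither passed.

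Ntrk3 varied little within genotypes, with an SD of 1.88% to 6.35% of the mean, and showed an order of its own. It was 185, 183 and 198 CPM in WT, 201, 208 and 202 CPM in 5xFAD, 177, 193 and 184 CPM in p75NTRko and 171, 171 and 153 CPM in 5xFAD/p75NTRko libraries. All 3 of 5xFAD were the highest of the 12 and all 3 of 5xFAD/p75NTRko the lowest, while WT and p75NTRko overlapped. The step from 5xFAD down to 5xFAD/p75NTRko was -0.30 on the log2 scale, with an interval of -0.48 to -0.13 (SE 0.0817, unadjusted p = 0.00221, edgeR adjusted p = 0.475), and libraries were lower without overlap as for 6.02% of genes. 5xFAD/p75NTRko was also lower without overlap than p75NTRko (-0.16, edgeR adjusted p = 0.793), as 5.74% of genes were, and than WT (-0.19, edgeR adjusted p = 0.489), as 5.53% were. 5xFAD was higher than WT without overlap (0.11, edgeR adjusted p = 0.548), as 10.5% of genes were. The interaction was -0.27, with an interval of -0.52 to -0.02 (unadjusted p = 0.0339, edgeR adjusted p = 0.508). None of these passed. With Xist class as a covariate the step from 5xFAD was -0.21 and the interaction -0.12 (edgeR adjusted p = 0.999 and 0.998). 5xFAD against WT was then 0.02 in place of 0.11 (edgeR adjusted p = 0.991). That covariate is set by the p75NTRko libraries alone. Class and genotype coincide where 5xFAD is set against WT or 5xFAD/p75NTRko, so these fits cannot separate them. The 4 Ntrk3 values in pairwise comparisons of a single label kept their direction in every setting except p75NTRko against WT (-0.03), which turned to 0.01 with the thalamus and habenula score as a covariate and to 0.003 without WT replicate 3.

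Within a library the genes were then set against each other, which needs no scaling. Ntrk2 took 66.3% to 72.7% of the counts of both Trk genes, with means of 69.0% ± 1.67, 69.3% ± 1.39, 67.8% ± 2.11 and 71.3% ± 1.76 (SD, n = 3 each) in WT, 5xFAD, p75NTRko and 5xFAD/p75NTRko, all overlapping. Ntf3 took 2.87% to 7.77% of the counts of both ligands. Its share was narrow in p75NTRko, 7.00% to 7.22%, and lowest in 5xFAD, 2.87% to 6.77%, against 5.59% to 7.77% in WT and 5.70% to 7.66% in 5xFAD/p75NTRko. Ngfr reached 1.63% to 2.77% of the counts of both precursor receptors with the receptor label, and 0.0464% to 0.480% without it. Sort1 counts thus exceeded those of Ngfr in every library, and Ntrk2 and Sort1, at means of 420 and 379 CPM over all libraries, stood above Ntrk3 (186 CPM), Bdnf (90.5 CPM), Ntf3 (6.21 CPM) and Ngfr (4.56 CPM).

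**Figure D3:**
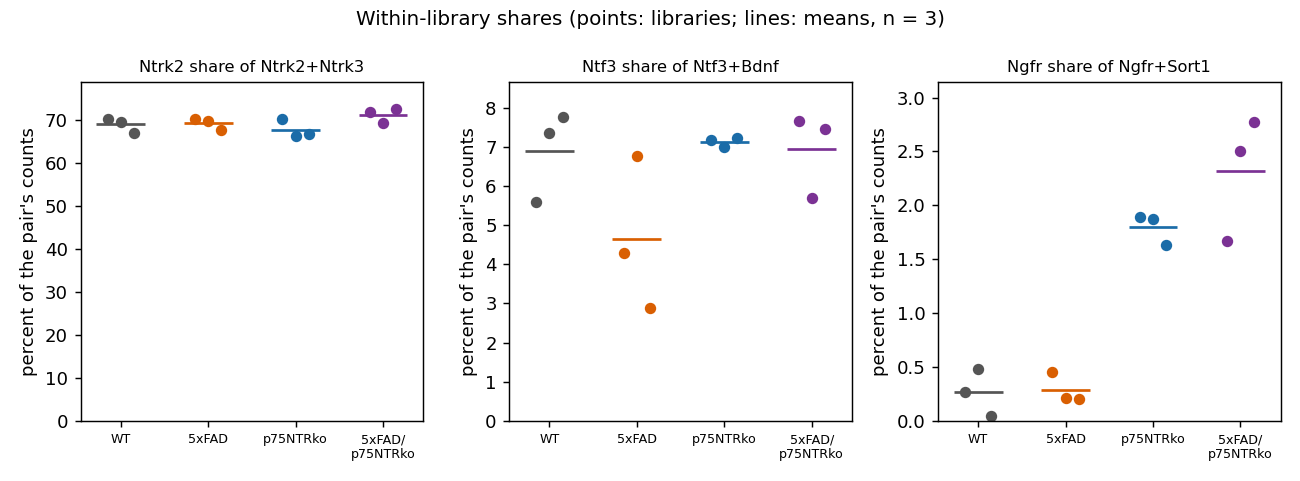
Share of one gene in the summed counts of a pair, in percent (vertical axes, from 0), for Ntrk2 with Ntrk3, Ntf3 with Bdnf and Ngfr with Sort1; points are libraries and lines genotype means. The Ngfr share is 0.0464% to 0.480% without the receptor label and 1.63% to 2.77% with it, and the Ntrk2 share overlaps across genotypes.

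Counts of members that passed are given here for each comparison beside the share of all genes tested. With the receptor label averaged over transgene states, 5 of 6 had an unadjusted p under 0.05, where 6.30% of all genes did, and only Ngfr passed after adjustment, by edgeR and by DESeq2 (0.291% of genes by DESeq2); ligands and Ngfr were higher and both Trk genes lower. In 5xFAD/p75NTRko against 5xFAD 1 of 6 passed by both tools (0.0383% of genes by edgeR, 0.125% by DESeq2) and 3 had an unadjusted p under 0.05 (5.08% of genes). In p75NTRko against WT 0 of 6 passed by edgeR (0% of genes), 2 had an unadjusted p under 0.05 (11.5% of genes) and 1, Ngfr, passed by DESeq2 (log2 fold change 2.80, adjusted p = 7.40e-05; 0.327% of genes by DESeq2). In 5xFAD/p75NTRko against WT 0 of 6 passed by edgeR (0% of genes), 3 had an unadjusted p under 0.05 (9.95% of genes) and Ngfr passed by DESeq2 (3.18, adjusted p = 2.26e-06; 0.222% of genes by DESeq2). In 5xFAD against WT 0 of 6 passed by edgeR and by DESeq2, against 0.0536% and 0.850% of genes, and 0 had an unadjusted p under 0.05 where 13.9% of genes did. 5xFAD/p75NTRko against p75NTRko gave 0 of 6 by both tools (0% of genes by edgeR, 0.167% by DESeq2) and 0 unadjusted (6.59% of genes), and the averaged transgenes 0 of 6 by edgeR (0.0153% of genes) and 0 unadjusted (10.3% of genes). There DESeq2 called 0 of 5 (0.678% of genes) and gave no adjusted p for Ngfr. The comparisons against WT share its 3 libraries. In the interaction 0 of 6 passed by both tools (0.0383% of genes by edgeR, 0.192% by DESeq2), and 1, Ntrk3, had an unadjusted p under 0.05 (9.32% of genes). Xist and the Y-linked genes made up much of some edgeR shares. They were 3 of the 7 genes called in 5xFAD against WT, 3 of 5 in 5xFAD/p75NTRko against 5xFAD and 4 of 5 in the interaction. The median log2 fold change of the 6 was 0.17 for the averaged receptor label and 0.07 for the averaged transgenes, beside 0.003 and 0.005 over all genes tested. By non-overlap of libraries, 1 member was higher (10.5% of genes) and 0 lower (9.02%) in 5xFAD against WT, and 1 higher (7.93%) and 0 lower (8.50%) in p75NTRko against WT. The counts were 2 higher (5.18%) and 1 lower (6.02%) in 5xFAD/p75NTRko against 5xFAD, 0 higher (6.54%) and 1 lower (5.74%) against p75NTRko, and 1 higher (5.95%) and 1 lower (5.53%) against WT. With the averaged receptor label 1 was higher (0.161%) and 0 lower (0.161%), and with the averaged transgenes 0 were higher (0.352%) and 0 lower (0.230%). With the averaged transgenes the 95% intervals ran from -0.12 to 0.18 for Sort1, -0.03 to 0.24 for Ntrk2 and -0.15 to 0.10 for Ntrk3, but from -0.68 to 0.25 for the scarce Ntf3.

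**Figure D4:**
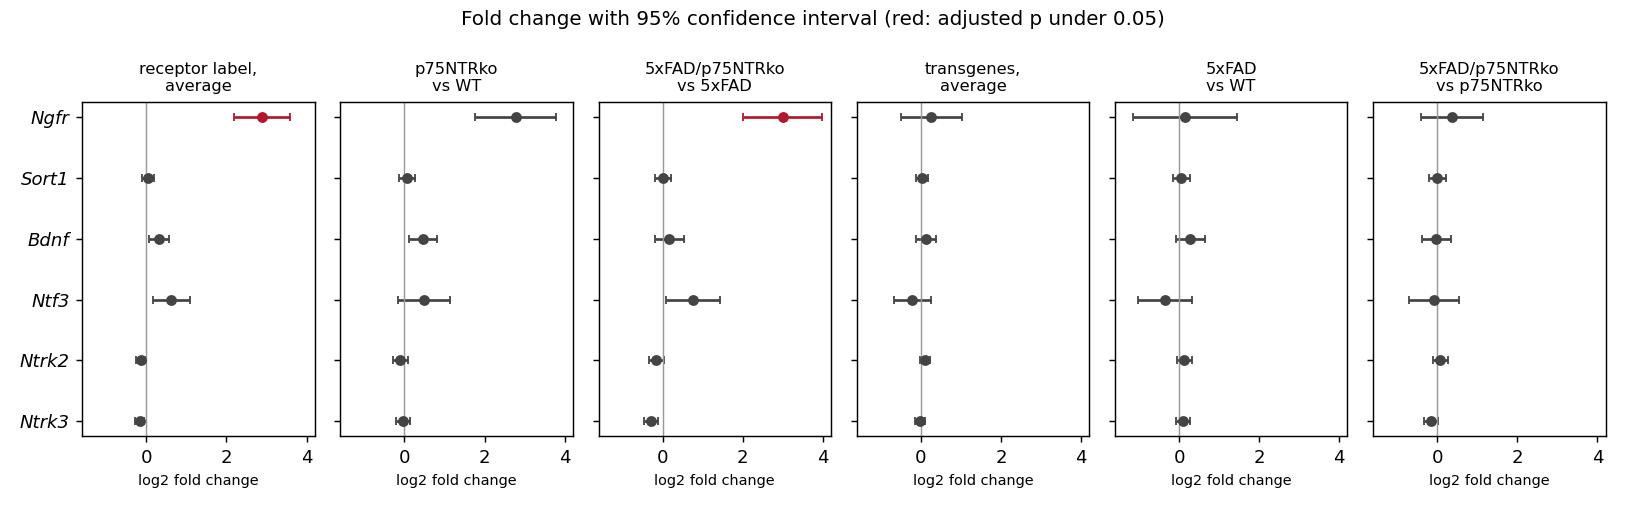
Log2 fold change (horizontal axes) of each gene in 6 comparisons, with 95% confidence intervals from edgeR's quasi-likelihood fit; red marks an adjusted p under 0.05. Ngfr lies between 2.77 and 2.997 in the 3 receptor comparisons at the left, and all intervals in the 3 transgene comparisons at the right include 0.

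The rest of the neurotrophin pathway was read from 5 lists of 96 genes found in the table, of which 88 were tested. In all 8 comparisons 0 of 88 passed by edgeR. An unadjusted p under 0.05 was found for 5 to 16 of them. The highest share was 18.2%, in 5xFAD/p75NTRko against WT, beside 9.95% of all genes there. In 5xFAD against WT it was 15.9% beside 13.9%, and for the averaged transgenes 13.6% beside 10.3%. The share was below that of all genes in p75NTRko against WT (9.09% beside 11.5%) and in the interaction (5.68% beside 9.32%). DESeq2 called Sorcs3 and Vgf in 5xFAD against WT, Sorcs3 for the averaged transgenes and none in the other 6; a fit without a filter called Vgf in 5xFAD against WT. Among other ligands and receptors, Ntf5, the gene of a further neurotrophin, had 0 to 6 counts per library and was not tested. Sorcs3, a relative of sortilin, was 49.1 ± 3.85 CPM in WT and 47.3 ± 0.907 CPM in p75NTRko against 67.1 ± 5.15 CPM in 5xFAD and 61.5 ± 5.51 CPM in 5xFAD/p75NTRko (SD, n = 3 each). Its log2 fold change for the averaged transgenes was 0.41 (SE 0.0745, edgeR adjusted p = 0.0911), the smallest p of the 88 in that comparison. Sorcs2, a relative that pairs with p75NTR, was 25.3 ± 2.70 and 25.7 ± 0.284 CPM in both receptor-labelled genotypes against 32.1 ± 2.60 CPM in WT and 30.9 ± 4.72 CPM in 5xFAD (log2 fold change -0.31 for the averaged label, edgeR adjusted p = 0.573).

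Of 9 tested genes that process precursors, Plat, the gene of tissue plasminogen activator, had the smallest p with the averaged receptor label (0.33, edgeR adjusted p = 0.704). Of 19 tested p75NTR co-receptor, shedding and adaptor genes, Mag, a myelin protein that signals through the Nogo receptor complex, had the smallest p there (-0.19, edgeR adjusted p = 0.775). Shc2 had it among the 39 tested Trk adaptors and kinases (0.28, edgeR adjusted p = 0.573) and Nptx2, a secreted synaptic protein, among the 16 genes known to respond to BDNF (0.46, edgeR adjusted p = 0.724). Vgf, a neuropeptide precursor of that last list, was 188 ± 32.8 CPM in WT and 123 ± 6.64 CPM in 5xFAD (SD, n = 3 each; -0.61, edgeR adjusted p = 0.116). The median log2 fold change of the 88 was 0.03 for the averaged receptor label, beside 0.003 over all genes, and 9 of them (10.2%) had an unadjusted p under 0.05, beside 6.30% of all genes.

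Genes whose log2 CPM followed a member most closely over the 12 libraries were named by Pearson's r, as a description. The libraries differ in depth and in tissue marker scores, and no p is given. For Ngfr these were Snf8 (r 0.91), Cenpw (0.91) and Psmd4 (0.87); Snf8, which codes for a subunit of an endosomal sorting complex, lies 0.45 Mb from Ngfr on chromosome 11. Bdnf was followed by Tm2d1, Rab40b and Eml5 (0.95 to 0.96), Sort1 by Hsp90aa1, Smarcd2 and Pip5k1a (0.85 to 0.92) and Ntf3 by Cpsf3, S100a11 and Hinfp (0.85 to 0.91). Ntrk2 was followed by Etnppl, an astrocyte enzyme, Creb1 and Snw1 (0.85 to 0.88), and Ntrk3 by Sspn, Gnb1l and Ccdc148 (0.85 to 0.87). Around the genotype means the coefficients for Bdnf stayed at 0.92 to 0.95, while those of Ngfr were 0.52 with Snf8, 0.84 with Cenpw and 0.41 with Psmd4.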

How the data were processed

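Reads per gene symbol were deposited as raw counts, with no normalization recorded in the file. Per the submitters' processing notes, FastQC, HISAT2, SAMtools, HTSeq and edgeR and the build mm10 were used; versions, annotation and strand setting are not given in the sources used here. Per the labels' protocols, libraries were QuantSeq forward 3′ libraries. The 5 summary lines of the table, 61.5% to 67.8% of reads per library, were left out, and 0 columns belonged to other samples. Reads without a unique alignment, part of those summary lines, made up 9.58% to 12.1% of all reads.

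The fit used edgeR 4.0.16 in R 4.3.3 (filterByExpr, TMM factors of 0.975 to 1.03, quasi-likelihood fit with a mean per genotype over all 12 libraries, Benjamini-Hochberg over 13065 genes, threshold 0.05). Each standard error is the fold change divided by the root of its F. Log2 CPM used a prior count of 2. Marker relations used log2(CPM + 1) of the member, 100000 resamples, or all orderings for up to 9 libraries, two-sided. The labels call the samples biological replicates. No 2 libraries agreed within sampling noise (lowest chi-square over degrees of freedom, 2.97). In simulated data with 200 genes changed along the receptor label, 90.5% of 2-fold and 55.0% of 1.5-fold changes were recovered in the averaged comparison (12936 and 12920 genes tested). Protein comparisons were not run. Some genes of the lists are not reported here.

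Members and lists were chosen with earlier results of these data known. Named were all members, for the lists genes past the threshold or of smallest p, and for each member the 3 genes of highest r; further list genes were chosen after their values were seen. Alternatives were DESeq2 1.42.0, RLE scaling, no filter, only genes with mean counts of 10 or more, fits restricted to the compared genotypes, a replicate block, covariates and leaving out each library.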

Additional observations from a re-analysis of the deposited data

How the results depend on the processing

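Ngfr was called with the averaged receptor label in all 21 alternatives, and no other member was called in any comparison or alternative. For the averaged transgenes DESeq2 gave no adjusted p for Ngfr. In 5xFAD/p75NTRko against 5xFAD, where 1 member passed, 0 passed with a mean of at least 10 counts, with the replicate block, with Xist class as a covariate and with the hippocampal neuron score as a covariate. In p75NTRko against WT, where 0 passed, 1 passed by DESeq2 and without a filter; in 5xFAD/p75NTRko against WT, 1 passed by DESeq2, without a filter and with the hippocampal neuron score as a covariate. Leaving out 1 library at a time gave 0 to 1 members in each of these comparisons. The cause was not tested.

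Replicate numbers did not pair the samples: deviations of same-numbered libraries correlated at -0.42 to 0.15, and 2 of 18 pairs were above 0.1. With the replicate block Ngfr was 2.91 with the averaged receptor label (edgeR adjusted p = 0.027), and the genes called there went from 11 to 4. DESeq2 called 39, a fit without a filter 21, Xist class as a covariate 3 and the thalamus and habenula score 1; leaving out 1 library gave 1 to 14. Another scaling moved the median over all genes by -0.0092 at most. With 13 to 53 counts for Ntf3 and 1 to 64 for Ngfr, depth limits both.

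Log2 fold changes that did not pass changed sign as follows. With thalamus and habenula score as a covariate, the sign turned to -0.24 for Ngfr in 5xFAD against WT, -0.001 for Sort1 in 5xFAD against WT and -0.021 for Sort1 in p75NTRko against WT. There too were 0.011 for Ntrk3 in p75NTRko against WT, 0.014 for Ntrk2 in 5xFAD/p75NTRko against WT and 0.047 for Sort1 in the interaction. Further values were -0.252 for Ntf3 in the interaction. With hippocampal neuron score as a covariate, the sign turned to -0.028 for Sort1 in 5xFAD against WT, -0.065 for Bdnf in 5xFAD against WT and -0.035 for Sort1 in p75NTRko against WT. There too were 0.154 for Bdnf in 5xFAD/p75NTRko against p75NTRko, 0.083 for Ntf3 in 5xFAD/p75NTRko against p75NTRko and 0.013 for Ntrk2 in 5xFAD/p75NTRko against WT. Further values were -0.311 for Ngfr in the interaction, 0.073 for Sort1 in the interaction and 0.219 for Bdnf in the interaction. The fit without the 3 libraries of lowest hippocampal neuron score kept WT replicate 3 as the only WT library. In that fit the sign turned to -0.122 for Bdnf in 5xFAD against WT and -0.073 for Ntf3 in p75NTRko against WT. It turned to 0.103 for Bdnf in 5xFAD/p75NTRko against p75NTRko. There too were -0.078 for Ntf3 in 5xFAD/p75NTRko against WT, 0.033 for Ntrk2 in 5xFAD/p75NTRko against WT and -0.009 for Bdnf in the averaged transgenes. Further values were -2.343 for Ngfr in the interaction and 0.225 for Bdnf in the interaction. With Xist class as a covariate, the sign turned to -0.109 for Sort1 in 5xFAD/p75NTRko against 5xFAD, -0.074 for Sort1 in 5xFAD/p75NTRko against p75NTRko and 0.121 for Bdnf in 5xFAD/p75NTRko against p75NTRko. There too were 0.052 for Ntf3 in 5xFAD/p75NTRko against p75NTRko, -0.02 for Ntrk2 in 5xFAD/p75NTRko against p75NTRko and -0.166 for Ngfr in the interaction. Further values were 0.052 for Bdnf in the interaction. Under DESeq2, the sign turned to -0.004 for Sort1 in 5xFAD/p75NTRko against p75NTRko. Under RLE size factors, the sign turned to -0.004 for Sort1 in 5xFAD/p75NTRko against p75NTRko. With no filter on low counts, the sign turned to -0.004 for Sort1 in 5xFAD/p75NTRko against p75NTRko. With only the genotypes compared in the fit, the sign turned to -0.002 for Sort1 in 5xFAD/p75NTRko against p75NTRko. Leaving out 1 library at a time gave values on both sides of 0, -0.332 to 1.004 for Ngfr in 5xFAD against WT and -0.024 to 0.131 for Sort1 in 5xFAD against WT. The same fits gave -0.675 to 0.025 for Ntf3 in 5xFAD against WT and -0.066 to 0.003 for Ntrk3 in p75NTRko against WT. The same fits gave -0.057 to 0.089 for Sort1 in 5xFAD/p75NTRko against 5xFAD and -0.046 to 0.043 for Sort1 in 5xFAD/p75NTRko against p75NTRko. The same fits gave -0.148 to 0.104 for Bdnf in 5xFAD/p75NTRko against p75NTRko and -0.085 to 0.008 for Ntrk2 in 5xFAD/p75NTRko against WT. Further ranges were -0.01 to 0.067 for Sort1 in the averaged transgenes and -0.043 to 0.001 for Ntrk3 in the averaged transgenes. Further ranges were -0.625 to 0.711 for Ngfr in the interaction and -0.127 to 0.028 for Sort1 in the interaction. Further ranges were -0.108 to 0.588 for Ntf3 in the interaction and -0.105 to 0.002 for Ntrk2 in the interaction.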
